A study of Mus musculus with 17 samples.

Results

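The TRAF genes examined here, Traf1, Traf2, Traf3, Traf5 and Traf6, are 5 of 21900 annotated protein-coding genes of the mouse. They were chosen by name from the TRAF family, with the polymerase summit values of these libraries already known, and the family's Traf4 and Traf7 are not among them. Each was represented by the RNA polymerase II summits that lay in its gene span or within 1 kb of either end in each library. Polymerase was immunoprecipitated from macrophages grown from mouse bone marrow, and its DNA was sequenced. Cells were N4bp1 knockouts (KO) or wild type (WT), and each genotype was either left untreated or treated with R837 for 2, 4 or 6 h. Each of the 8 groups held 2 libraries, 16 in all, 12 of them treated and 4 untreated. R837 is imiquimod, an agonist of the RNA sensor TLR7, and N4BP1 is a protein known to restrain the production of inflammatory cytokines. The labels do not say which bases of N4bp1 were deleted, or whether the replicates are different cultures or mice, and the p-values below therefore reflect library-to-library spread alone.

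TRAF proteins are cytoplasmic adaptors that dock on receptors of the TNF and Toll/IL-1 families and pass the signal to kinases that activate NF-kB and MAP kinases. TRAF6 is a ubiquitin ligase that acts below MyD88 and the IRAK kinases, the route used by TLR7. TRAF2 and TRAF5 act below TNF receptors, TRAF3 together with TRAF2 and the cIAP ligases restrains the kinase NIK and takes part in interferon induction, and TRAF1, which lacks the RING domain of its relatives, binds TRAF2 and is itself a known NF-kB target gene.

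The measure is the place of a summit in its own library's list, ordered by the authors' score, a p-value or q-value as −log10. Lists differed in length, from 8394 to 29760 summits, so for comparisons each was shortened to its 8394 best summits. The rank score of a gene is log2 of (8394 + 1) over the rank held by its best summit. It is 0 where the shortened list held none and 13.04 for the top summit, and it is a place in a list, not an amount of polymerase. The files give no read counts, so depth is unknown. A gene with no listed summit may still carry polymerase below the calling threshold. In a bulk sample, fewer cells with polymerase on a gene and less polymerase per cell cannot be told apart.

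A gene was tested if 2 or more of the 16 shortened lists held a summit in its region, which left 8475 genes, among them 4 of the 5 TRAF genes. Traf5 had a summit in no shortened list and was not tested. Traf1 had one in 9 shortened lists, Traf2 in 14, Traf3 in 2 and Traf6 in 10. Changes are differences in rank score from a limma fit over all tested genes, given with the standard error (SE) of the fit and a Benjamini-Hochberg p adjusted over all of them, with a threshold of 0.05. The genes and the groups compared were chosen with results of these data known, so these p-values are not independent evidence.

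Both 6 h groups held a library that stood apart. Replicate 2 of KO at 6 h had the longest list (29760 summits) and a highest score of 563.5, against at most 320.4 elsewhere, and replicate 2 of WT at 6 h had the shortest (8394) and no summit in any of the 5 TRAF regions. Codes in the peak names place the untreated and 2 h libraries in 1 series, and those of 4 h and of 6 h in 1 series each. A batch therefore cannot be told apart from time for 4 h and 6 h against untreated, whereas KO and WT shared a series at each time. The targeted gene, N4bp1, had no summit in the 4 untreated shortened lists, and its best summit stood at ranks 541 to 1713 in the 6 treated KO lists and 957 to 3475 in the 6 treated WT lists, which does not check the genotype labels. The cell type was checked on marker genes. All 10 macrophage markers were tested, with a summed rank score of 32.5 to 55.03 in treated and 39.12 to 42.68 in untreated libraries. The Fc receptor gene Fcgr1, was called lower in KO than in WT in treated cells. For markers of other cell types the highest sums in treated against untreated libraries were 0.15 against 0.57 for 7 T and NK markers, 1.44 against 0 for 8 neutrophil markers, 0.5 against 0 for 6 stromal markers and 5.15 against 1.61 for 6 dendritic-cell markers, nearly all of the last from Xcr1. Cd3e, Ly6g, Clec9a and Col1a1 were at 0 in every library.

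The sequence before each gene is shown because the genes differed in where their summits lay, and the start site is the common landmark. Each window runs from 250 bases before the annotated start to 50 after it, on the gene's strand, from RefSeq on GRCm38.p6, and all 5 genes matched the table by symbol. Capitals mark CG dinucleotides.
Traf1 (chr2:34961723-34962022, minus strand): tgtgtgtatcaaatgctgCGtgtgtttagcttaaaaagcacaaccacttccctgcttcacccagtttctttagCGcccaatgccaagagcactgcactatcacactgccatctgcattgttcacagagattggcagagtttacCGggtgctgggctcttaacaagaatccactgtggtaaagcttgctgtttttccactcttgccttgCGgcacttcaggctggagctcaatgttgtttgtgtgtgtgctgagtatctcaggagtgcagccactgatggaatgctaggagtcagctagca
Traf2 (chr2:25546891-25547190, minus strand): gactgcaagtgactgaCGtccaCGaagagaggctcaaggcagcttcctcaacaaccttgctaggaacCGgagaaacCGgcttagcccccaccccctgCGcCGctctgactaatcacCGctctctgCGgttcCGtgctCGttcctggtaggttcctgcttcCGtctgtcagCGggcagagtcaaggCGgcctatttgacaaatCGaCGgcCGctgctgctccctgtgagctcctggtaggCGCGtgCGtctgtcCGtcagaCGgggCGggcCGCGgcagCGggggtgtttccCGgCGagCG
Traf3 (chr12:111166120-111166419, plus strand): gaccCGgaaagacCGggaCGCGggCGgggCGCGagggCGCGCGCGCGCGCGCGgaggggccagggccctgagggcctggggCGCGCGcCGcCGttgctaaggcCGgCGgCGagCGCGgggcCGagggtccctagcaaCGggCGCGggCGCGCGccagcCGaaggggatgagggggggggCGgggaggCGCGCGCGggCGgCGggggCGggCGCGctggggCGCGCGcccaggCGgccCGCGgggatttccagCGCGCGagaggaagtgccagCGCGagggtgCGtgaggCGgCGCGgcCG
Traf5 (chr1:192092550-192092849, minus strand): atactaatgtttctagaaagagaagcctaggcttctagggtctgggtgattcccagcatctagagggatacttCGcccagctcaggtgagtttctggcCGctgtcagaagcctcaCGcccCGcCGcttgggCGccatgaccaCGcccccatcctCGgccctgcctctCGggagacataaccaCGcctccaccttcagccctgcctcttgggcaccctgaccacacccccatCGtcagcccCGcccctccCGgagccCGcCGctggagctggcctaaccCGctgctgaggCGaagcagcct
Traf6 (chr2:101678170-101678469, plus strand): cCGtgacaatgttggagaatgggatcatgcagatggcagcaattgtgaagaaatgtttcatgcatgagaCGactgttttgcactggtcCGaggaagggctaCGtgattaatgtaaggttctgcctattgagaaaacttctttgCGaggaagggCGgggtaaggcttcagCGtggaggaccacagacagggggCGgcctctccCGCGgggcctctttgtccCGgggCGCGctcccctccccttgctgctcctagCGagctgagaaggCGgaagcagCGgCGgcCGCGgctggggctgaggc

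The Traf1 window held the fewest CG dinucleotides of the 5. It held 4, a count that 28.4% of 21263 promoter windows of this length had or fell below, and the median window held 13. Traf2, Traf3, Traf5 and Traf6 held 28, 59, 17 and 19, and only 0.118% of windows held as many as Traf3. The 6 letters GGGCGG, searched on both strands, were in 46.2% of all windows and in those of Traf2, Traf3, Traf5 and Traf6, but not in that of Traf1. The NF-kB consensus, present in 9.25% of windows, had a single match among the 5, in Traf3 at offset −10 from the start (GGGGATTTCC). The letters TATAAA, present in 12.6% of windows, had no match in any of the 5. These matches are letters in 1 window and are not binding data.

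Traf1 was the TRAF gene with polymerase summits after R837 and none before it. It lies at chr2:34941750-34961812 on GRCm38 (gene ID 22029, minus strand), and the lncRNA Gm52552 on the plus strand begins inside it, 10.5 kb past the Traf1 start, and runs out across that start. Another lncRNA gene, Gm46733, also overlaps the Traf1 region, and its position was not examined. Polymerase summits carry no strand, so those in a stretch shared with another gene cannot be given to 1 gene. The 4 untreated libraries listed 0 summits in the Traf1 region. After 2 h of R837 the KO libraries listed 16 and 11 and the WT libraries 15 and 13. After 4 h KO listed 9 and 16 against 3 and 4 in WT, and after 6 h KO listed 15 and 15 against 2 and 0 in WT. By these summit counts KO and WT overlapped at 2 h, whereas at 4 and 6 h every KO library lay above every WT library. These counts come from lists that at 4 and 6 h were longer in KO than in WT. The share of all genes whose counts separate in this way was not computed, and by rank score it was 3.29% of tested genes. In the treated KO libraries, between 0.379% and 1.75% of all protein-coding genes had as many summits as Traf1.

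The best Traf1 summits reached the upper part of the lists. Their ranks at 2 h were 627 and 617 in KO and 1056 and 723 in WT, and at 4 h they were 525 and 587 in KO but 12203 and 5550 in WT. At 6 h they were 1706 and 1102 in KO and 10707 in the first WT library, with none in the second. On the rank score scale, Traf1 in KO averaged 3.76 ± 0.02 at 2 h, 3.92 ± 0.11 at 4 h and 2.62 ± 0.45 at 6 h (SD, n = 2 each). In WT it averaged 3.26 ± 0.39 at 2 h and 0.30 ± 0.42 at 4 h, and it was 0 in both libraries at 6 h and in all untreated libraries. The lowest KO value at 4 and 6 h was 2.3 and the highest WT value at those times was 0.6. At 2 h both KO rank scores, 3.74 and 3.77, also lay above both WT ones, 2.99 and 3.54, unlike the summit counts. The share of all genes with such a split at 2 h was not computed.

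**Figure D1:**
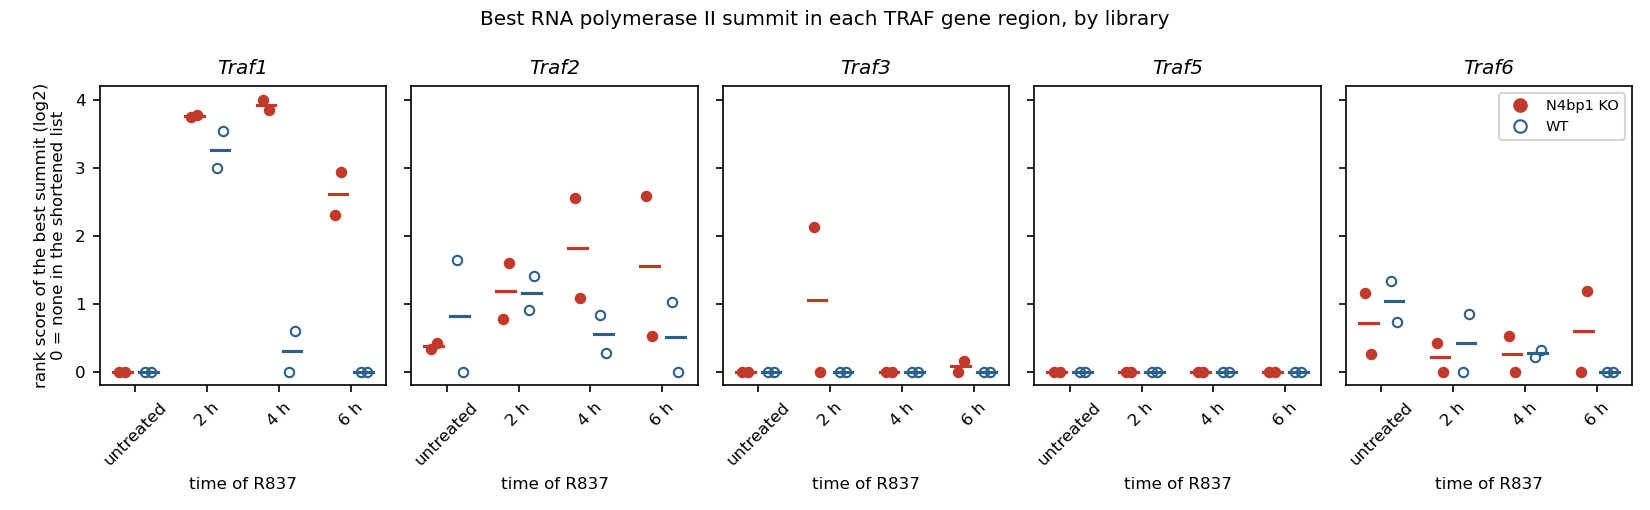
Rank score (log2, vertical axis) of the best polymerase summit in each TRAF gene region against time of R837, with 1 point per library and a bar at the mean of each group of 2 (KO filled, WT open). Traf1 is 0 in all 4 untreated libraries and stays between 2.3 and 4.0 in KO at 4 and 6 h, where WT lies between 0 and 0.6.

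Over both genotypes, the Traf1 rank score was 2.31 ± 0.28 higher with R837 (SE, 12 treated against 4 untreated libraries, adjusted p = 4.61e-05). All 9 shortened lists with a Traf1 summit were of treated libraries, so the gene was tested through that group alone. With a score of 0 in all 4 untreated libraries its change could not have been a fall, and the limma p-values against untreated describe the change only. Traf1 was 1 of 4 tested TRAF genes called, in a comparison in which 35.1% of all tested genes were called (5.77% higher, 29.4% lower). For Traf1 the 2 h libraries alone lay 3.51 ± 0.34 above the untreated ones (adjusted p = 1.35e-05), where 28.9% of all tested genes were called and 4.84% were called higher. For the 4 h libraries the change was 2.11 ± 0.34 (adjusted p = 6.73e-04), with 25.4% of genes called and 5.71% called higher. It was smallest for the 6 h libraries, 1.31 ± 0.34 (adjusted p = 0.0109), with 29.5% called and 6.32% called higher. The call at 6 h was lost when each list was reduced to 1 rank per gene (0.59, adjusted p = 0.129) and without both libraries that stood apart (1.15, adjusted p = 0.0566).

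KO and WT differed in Traf1 at the later times. Over the 3 treated times the rank score was higher in KO by 2.24 ± 0.28 (6 against 6 libraries, adjusted p = 0.00232), where 0.743% of all tested genes were called and 0.448% were called higher. At 2 h alone the difference of 0.49 ± 0.48 did not pass (adjusted p = 1, 0.0708% of genes called). It was 3.62 ± 0.48 for the 4 h libraries (adjusted p = 0.00434), where 0.401% of genes were called and 0.165% called higher. For the 6 h libraries it was 2.61 ± 0.48 (adjusted p = 0.0175), where 1.32% were called and 1.13% called higher. In all, 3.29% of tested genes had every KO value at 4 and 6 h above every WT value, as Traf1 did. In untreated cells Traf1 was 0 in both genotypes, no TRAF gene was called by limma and 0 of the 4 tested had an unadjusted p under 0.05, with 1.37% of all genes called.

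These differences were not equally firm. With all 3 times together the KO and WT call held under every alternative run. At 4 h it was lost with summit counts in place of ranks (adjusted p = 0.239) and when only the 4 h libraries were fitted (adjusted p = 0.607). At 6 h it was lost without KO replicate 2 (2.3, adjusted p = 0.0892), WT replicate 1 (adjusted p = 0.0771) or WT replicate 2 (adjusted p = 0.0737), and with 1 rank per gene (1.17, adjusted p = 0.145), only the 6 h libraries fitted (adjusted p = 0.593), or both libraries that stood apart removed (adjusted p = 0.168). The response to R837 in KO less that in WT was 2.24 ± 0.55 and missed the threshold (adjusted p = 0.092, with 0.932% of all genes called). The KO and WT difference at 4 and 6 h less that at 2 h was 2.63 ± 0.58 and also missed it (adjusted p = 0.286, with 0.0118% called). In each of these comparisons limma called 0 of the 4 tested TRAF genes, and 1, Traf1, had an unadjusted p under 0.05. Leaving out 1 library in turn, the first ranged from 2.14 to 2.35 and the second from 2.35 to 2.9. Without KO 6 h replicate 1 they were 2.35 and 2.78, and that fit leaves replicate 2, which stood apart, as the only KO library at 6 h.

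List length moved with genotype at these times. The 4 and 6 h lists held 22157 to 29760 summits in KO and 8394 to 19710 in WT. In lists of equal length Traf1 had 4 to 6 summits in each KO library at 4 and 6 h and 0 to 3 in each WT library, so the groups did not overlap there either. The share of all genes with such counts was not computed, and by rank score 3.29% of tested genes had every KO value above every WT value at these times. At 2 h, where the shortened lists held 11 Traf1 summits in every library of both genotypes, the KO lists were 13825 and 9402 long and the WT lists 10769 and 11010. The part of depth or enrichment in the difference was not tested.

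Along Traf1, summits formed 9 stretches when summits within 500 bp were joined, spread along the gene with gaps between them. At the start, from 0.6 kb before to 2.0 kb past it, summits were present in 6 of 6 treated KO libraries and in both WT libraries of 2 h but none of the other 4 treated WT libraries. A stretch 3.7 to 4.5 kb past the start was occupied in 10 of 12 treated libraries (6 KO and 4 WT). It held the best summit of 4 KO libraries and of both WT libraries at 4 h. The stretch 12490 to 14013 bp past the start, 1 of the 9, was occupied in 6 KO libraries and no WT library. Its bounds rest on the joining distance, as joining within 250 bp gave 31 stretches and within 1000 bp gave 3. The nearest WT summit beyond it, at 2 h, lay 14585 bp past the start. In replicate 1 of KO at 6 h its summits ranked 10666 and 13568, below the shortened list. The share of all stretches found in KO alone was not computed. At the gene's end, 19.2 to 20.6 kb past the start, 11 of 12 treated libraries had a summit (6 KO and 5 WT), and there lay the highest-ranked summit of all, rank 525 in KO at 4 h. Start summits in KO ranked 3107 and 811 at 2 h, then 5497 and 10084 after 4 h, and 14388 and 11788 after 6 h, in lists of different length, so these ranks are not read as a change.

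**Figure D2:**
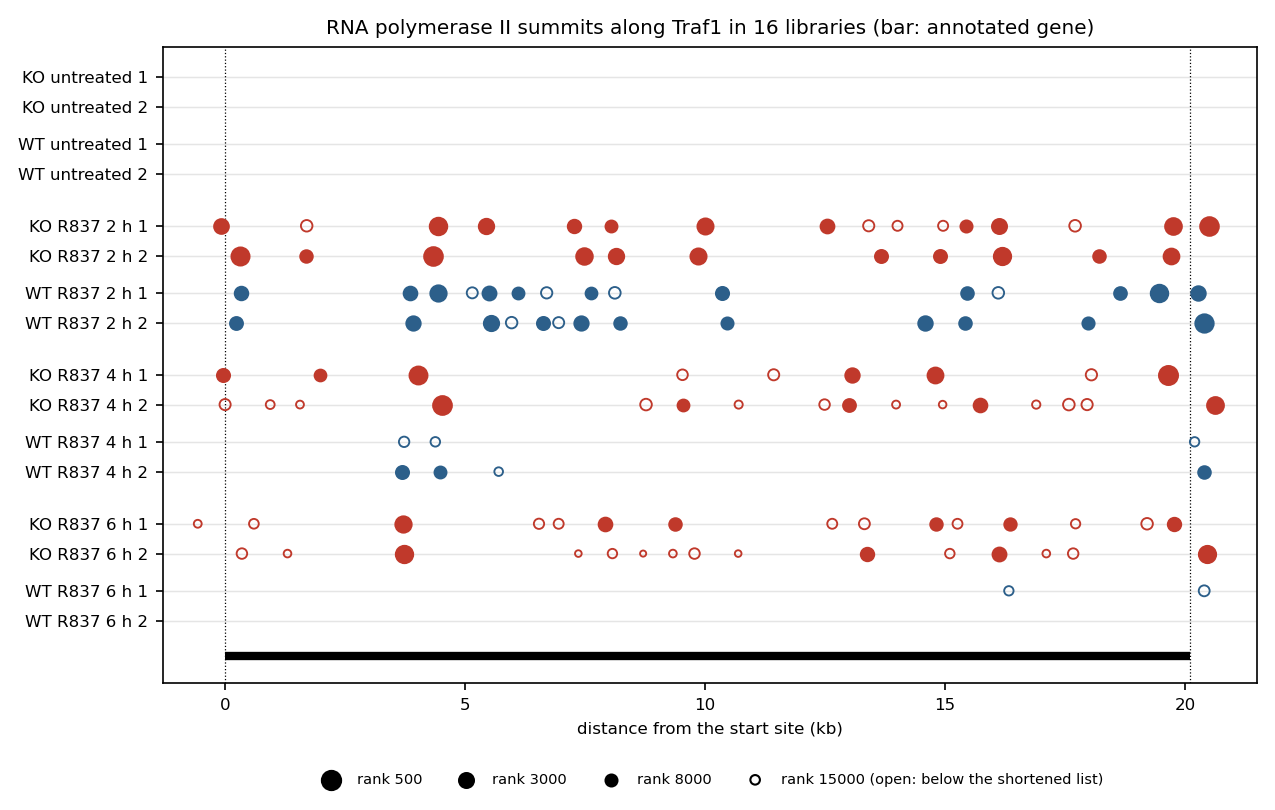
Position of each polymerase summit along Traf1 (kb from the start site, horizontal axis) in the 16 libraries, KO in red and WT in blue. Larger points stand for better ranks, open points lie below the 8394 best summits, and the bar is the annotated gene. The 4 KO libraries at 4 and 6 h hold 9 to 16 summits spread over the gene, against 0 to 4 in WT at those times, where the WT lists were shorter.

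By Pearson correlation of rank scores over the 16 libraries, the genes most like Traf1 were Clec4e (r = 0.94), which encodes the lectin receptor Mincle, and the chemokine genes Ccl5 (r = 0.94) and Cxcl1 (r = 0.91). The libraries share groups, so r describes a common pattern and was not tested. Genes chosen for likeness to Traf1 share its pattern by that choice. Their differences of KO and WT in treated cells, 2.42 for Clec4e, 3.22 for Ccl5 and 4.16 for Cxcl1, beside 2.24 for Traf1, are a description and no test is given.

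Traf2 carried polymerase at its start with or without R837 and had an additional summit inside the gene after R837. It lies at chr2:25517982-25546940 (gene ID 22030, minus strand). A summit from 0.2 kb before to 1.1 kb past the start was present in 11 of 12 treated and 4 of 4 untreated libraries. A second stretch, 12337 to 13015 bp past the start (chr2:25533925-25534603), was present in 11 of 12 treated libraries and in none of the 4 untreated ones, and the exception was the WT 6 h library with the shortest list. No other annotated gene covers this stretch. It is 1 of 11 stretches in Traf2, described for its pattern, and the share of all genes with such a gain was not computed. The 4 lists of the 2 h groups, with 9402 to 13825 summits, were shorter than the untreated lists, with 20607 to 24720, and all 4 held this interior summit. The part of list length was not tested.

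The interior Traf2 summit was in the shortened list of 9 libraries. At 2 h it ranked 4926 and 6812 in KO and 7595 and 4929 in WT. In KO it ranked 1424 and 4523 at 4 h, then 1392 and 8890 at 6 h. In WT it ranked 4727 and 11182 at 4 h and 4114 in the first library at 6 h. These ranks come from lists of different length. Summits at the gene's end, 27916 to 29953 bp past the start, were seen in treated libraries only, 5 in the outer and 4 in the inner stretch, and further summits between 3.2 and 22.4 kb were all in KO libraries and all lay below the shortened lists.

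**Figure D3:**
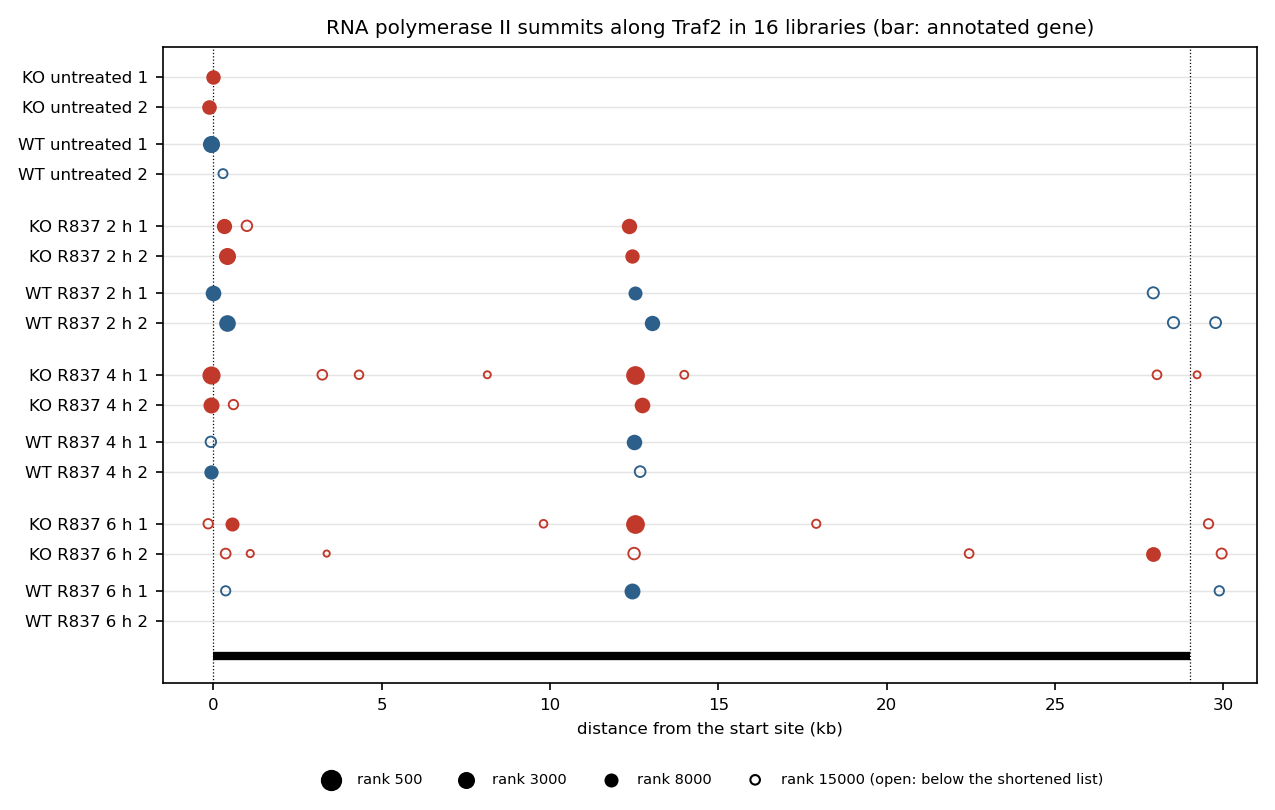
Position of each polymerase summit along Traf2 (kb from the start site, horizontal axis) in the 16 libraries, KO in red and WT in blue, with point size and filling as ranks. A summit 12337 to 13015 bp past the start appears in 11 of 12 treated libraries and in 0 of 4 untreated libraries. This stretch was picked for its pattern, and the share of all genes with such a gain was not computed.

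The best rank of Traf2 did not separate the groups. Its rank score averaged 1.13 ± 0.81 in 12 treated and 0.60 ± 0.72 in 4 untreated libraries (SD), and the treated values (0 to 2.59) spanned the untreated ones (0 to 1.64). The change was 0.53 ± 0.45 (SE, adjusted p = 0.385). In treated cells KO averaged 1.52 ± 0.89 and WT 0.74 ± 0.51 (SD, n = 6 each), a difference of 0.78 ± 0.45 (SE, adjusted p = 0.544). The single-time differences of KO and WT were 0.03 ± 0.79, 1.28 ± 0.79 and 1.04 ± 0.79 at 2, 4 and 6 h, and none passed. With summit counts in place of ranks, Traf2 was called at 2 h of R837 (0.83 ± 0.26, adjusted p = 0.0438), where 28.8% of all genes were called. The tested genes most like Traf2, Smtnl1 and Timm10 (r = 0.77) and Tfec (r = 0.76), had summits in 2 to 3 shortened lists, so their likeness rests on few libraries.

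Traf6 had a single stretch of summits, 42 to 275 bp past its start, and no listed summit elsewhere in its 23.2 kb. It lies at chr2:101678420-101701668 (gene ID 22034, plus strand), with no other annotated gene in its region. The start summit was present in 7 of 12 treated libraries (4 KO and 3 WT) and 4 of 4 untreated ones. After R837 the listed ranks were 6296, 5841, 9458 and 3672 in KO, the last from the 6 h library that stood apart, and 4649, 7232 and 6727 in WT. Untreated ranks were 3766 and 7005 in KO and 3324 and 5075 in WT. The treated and untreated ranges overlapped.

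On the rank score scale Traf6 averaged 0.29 ± 0.39 in treated and 0.87 ± 0.48 in untreated libraries (SD), a change of −0.58 ± 0.27 (SE, adjusted p = 0.116). The median change of all tested genes was −0.33, and 29.4% of them were called lower. Without KO 6 h replicate 2, which leaves 1 KO library at 6 h, the Traf6 change was −0.68, beside a median of −0.37 over all genes. With lists as deposited, which differ in length, the Traf6 change was −1.31 ± 0.50 and passed (adjusted p = 0.0385). There the median of all genes was −0.84 and 53.5% of them were called. In treated cells the difference of KO and WT was 0.12 ± 0.27 (adjusted p = 0.955). Its most similar genes were Mroh1 (r = 0.91), Glod4 (r = 0.87) and Mrm3 (r = 0.87), each with a change of −0.62 after R837, and Glod4 and Mrm3 had the same values as each other.

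Traf5 summits were low in every list and were mostly found in untreated cells. The gene lies at chr1:191997203-192092599 (gene ID 22033, minus strand) and holds the miRNA gene Mir3473c. A summit at the start, from 2 bp before to 334 bp past it, was present in 2 of 12 treated libraries, ranked 18423 in a KO 4 h library and 25628 in the KO 6 h library that stood apart, and in 4 of 4 untreated libraries. The untreated ranks were 15591 and 11515 in KO and 13905 and 8769 in WT, all outside the 8394 summits compared. A summit 13.9 to 14.1 kb past the start was listed in 1 untreated library of each genotype. The 4 lists at 2 h ended at 13825 summits or fewer, so lower-ranked summits could not be listed there. With the lists as deposited the change was −0.82 ± 0.14 (SE, adjusted p = 4.07e-04), and list length was part of that measure. The median change over all genes was −0.84 on that scale and 49.1% of genes were called lower, so the Traf5 value was close to that of the typical gene.

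Traf3, the longest of the 5 genes at 100.8 kb (chr12:111166321-111267155, gene ID 22031, plus strand), had few and low summits. The lncRNA 4930595D18Rik overlaps its start on the other strand. Summits were listed in 5 of 6 treated KO libraries, 1 of 6 treated WT libraries and 3 of 4 untreated libraries, both KO ones among them. Their places were 0.4 to 1.0 kb before the start, 0.6 to 0.8 kb, 2.0 to 2.2 kb and 20.3 to 20.7 kb past it, and 1 at 26.6 kb. The lists at 4 and 6 h held 22157 to 29760 summits in KO and 8394 to 19710 in WT, so the KO lists reached lower ranks. The part of list length was not tested, and the share of all genes with such a split was not computed. Only 2 summits entered the shortened lists, rank 1926 in KO at 2 h (replicate 1) and rank 7517 in KO at 6 h (replicate 2).

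Traf3 thus rested in the fit on 2 libraries, both of treated KO cells, and was tested through that group alone. Its change after R837 was 0.19 ± 0.25 (adjusted p = 0.582) and its difference of KO and WT in treated cells was 0.38 ± 0.25 (adjusted p = 0.624). Without KO 2 h replicate 2, which held no Traf3 summit, the change was 0.37 (adjusted p = 0.00325) and the difference 0.73 (adjusted p = 0.00196), both past the threshold. That omission leaves 1 KO library at 2 h, the one that holds the summit, which is then assumed to vary like the other groups, where Traf3 was almost always 0. At 2 h, where limma called 0 of the 4 tested TRAF genes, the Traf3 difference of 1.06 ± 0.44 was the 1 with an unadjusted p under 0.05 (adjusted p = 0.863). Its most similar genes, Bid, Ddost and Phlpp2 (r = 1.0), also rested on 2 lists each.

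**Figure D4:**
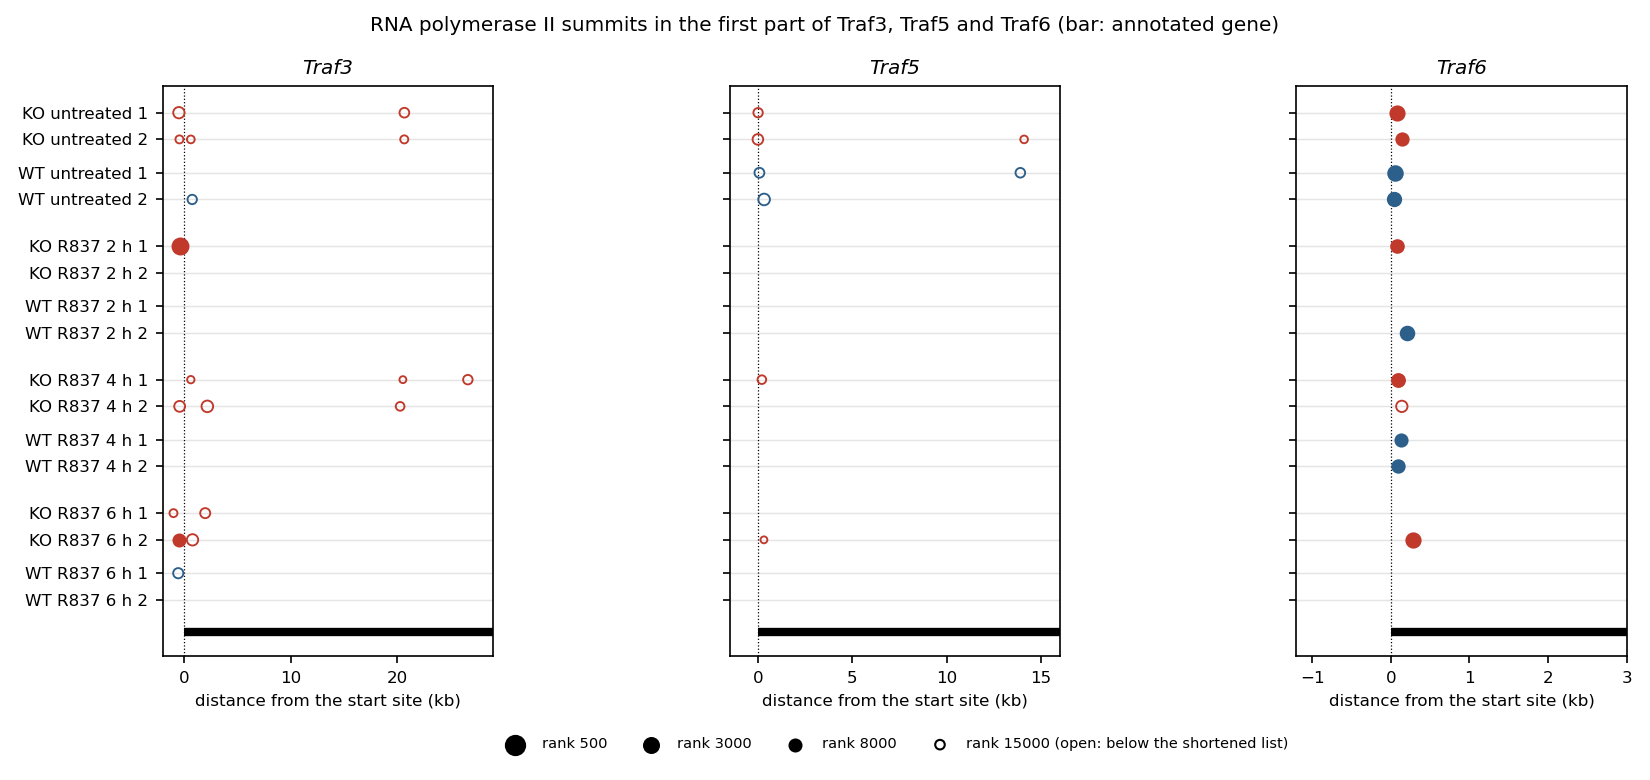
Position of each polymerase summit in the first stretch of Traf3, Traf5 and Traf6 (kb from the start site, horizontal axes of different scale) in the 16 libraries, with point size and filling as ranks. Traf5 shows a start summit in 2 of 12 treated libraries and Traf6 in 7 of 12, each also in all 4 untreated libraries. Traf3 summits lie mostly in KO, where the lists at 4 and 6 h were longer, and most of them are open points below the shortened lists.

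Among 88 listed genes of TRAF pathways outside the family, 71 were tested. After R837, 20 were called higher and 14 lower, in a comparison that called 5.77% of all tested genes higher and 29.4% lower. These shares also stand beside the counts of each list below, so falls were common among all genes. The median change of the 71 genes was 0.15, beside a median of −0.33 over all genes tested. The lists were chosen with results of these data known, and their medians were not tested. With 1 rank per gene, where the median of all genes was 0.04 in place of −0.33, the calls over all genes were 418 higher and 627 lower, against 489 and 2488 here.

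Of 12 tested receptors and ligands that use TRAFs, 4 rose and 0 fell (median 0.54). Among them were Tlr2, which senses bacterial lipoproteins (3.89), Tnfrsf1b, the second TNF receptor (3.43), and Cd40, the receptor through which T cells activate macrophages (3.09). Of 11 adaptors and kinases above TRAF6 and TRAF3, 4 rose and 3 fell (median 0.05). Irak3, an inhibitory IRAK, rose by 2.71 and Myd88 by 2.02, while 3 fell: the death-domain kinase gene Ripk1 (−2.34), the TNF receptor adaptor gene Tradd (−1.41) and Mavs, the adaptor of RIG-I-like sensors (−0.92).

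Of 11 ubiquitin ligases and partners, 2 rose and 4 fell (median −0.32). Birc3, which encodes the TRAF2-bound ligase cIAP2, rose by 4.31, whereas those that fell included Sharpin, of the linear ubiquitin ligase (−1.59), Sqstm1 (−1.39) and Peli1, a ligase of the Pellino family (−1.34). Of 13 downstream kinase genes 1 rose and 4 fell (median −0.06). Ikbke, an IKK-related kinase gene, rose by 4.24, and those that fell included the TAK1 partner Tab1 (−2.93), the NIK gene Map3k14 (−1.06) and the TAK1 gene Map3k7 (−1.06).

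Of 8 NF-kB and IRF factor genes 4 rose and 1 fell (median 1.32). Nfkb2 rose by 2.99 and Irf7 by 2.63, and Irf5 fell by 2.34. Of 16 brakes on TRAF signalling, 5 rose and 2 fell (median 0.04). Tnfaip3, which encodes the ubiquitin-editing enzyme A20, rose by 6.43, its partner Tnip1 by 3.92, the RNase gene Zc3h12a by 3.24 and N4bp1 by 2.53, and the deubiquitinase genes Otud7b (−1.47) and Usp2 (−0.78) fell. Many of the falls rest on the scale used. With 1 rank per gene, 8 of the 10 named falls that could be tested lost their call, among them Mavs (−0.01), Map3k7 (−0.06), Peli1 (−0.11), Tradd (−0.21) and Otud7b (−0.36). With summit counts, 7 of the 12 named falls lost it, among them Tab1 (−0.15, adjusted p = 0.747), and the values of Irf5, Sharpin and Sqstm1 changed sign (0.09, 0.11 and 0.11). Of the 12 named rises 1 lost its call with summit counts, Zc3h12a (0.39, adjusted p = 0.182). Calls were also lost on leaving out 1 untreated library for Sqstm1 (KO replicate 2, adjusted p = 0.0901), Peli1 (WT replicate 2, 0.0644) and Mavs (KO replicate 2, 0.122, or WT replicate 2, 0.074). For Map3k7 this held for 4 libraries, KO untreated replicates 1 and 2, WT untreated replicate 2 and WT 2 h replicate 2 (adjusted p up to 0.143).

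**Figure D5:**
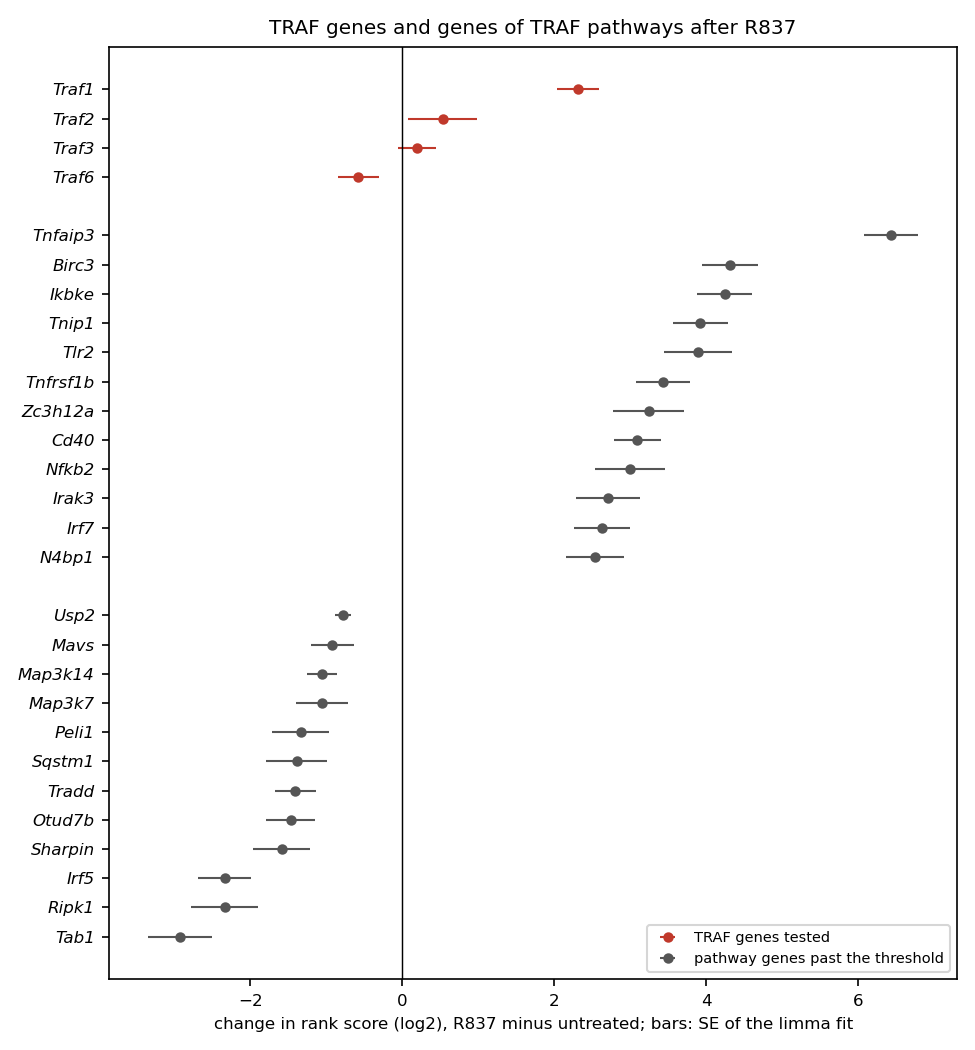
Change in rank score (log2, R837 minus untreated, horizontal axis) with the SE of the limma fit for the 4 tested TRAF genes (red) and for the 12 largest rises and 12 largest falls among called pathway genes (grey). Traf1 lies at 2.31, below the 12 pathway genes that rose most, which run from 2.53 to 6.43.

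Between KO and WT, 3 of the 71 pathway genes passed in at least 1 of the comparisons, which called 0.743% of all tested genes in treated cells, 1.37% in untreated cells, 0.0708% at 2 h, 0.401% at 4 h and 1.32% at 6 h. Tnfaip3 was higher in KO in treated cells by 1.73 ± 0.36 (adjusted p = 0.0488) and at 6 h by 3.51 ± 0.63 (adjusted p = 0.0162). Birc3 was higher in KO at 6 h by 3.0 ± 0.63 (adjusted p = 0.035). Sqstm1, the gene of the ubiquitin-binding adaptor p62, was lower in KO at 4 h, with a difference of −3.93 ± 0.70 (adjusted p = 0.0267). The Tnfaip3 call in treated cells was lost on leaving out any of 14 of the 16 libraries in turn (adjusted p up to 0.125) and with the replicate block (adjusted p = 0.0669), and that at 6 h without replicate 2 of KO (0.0734) or of WT (0.101). The Birc3 call was lost in 10 of 16 such fits (adjusted p up to 0.244) and the Sqstm1 call in 7 (up to 0.117). With summit counts the differences were −0.46 and −1.08 for Tnfaip3 and −0.87 for Birc3, and with regions extended by 3 kb that of Sqstm1 was 2.39, none of them called.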

How the data were processed

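The 16 deposited files are lists of 1 bp polymerase summits, 1 per library, with replicates kept apart. Per the submitters' processing notes, GSNAP, MACS2 and the GRCm38 build were used, and their versions and settings are not given in the sources used here. The score deposited by the authors is on a −log10 scale (p or q, not stated which) and was used only to order summits within a list, with ties in file order. An input sample is listed and was not analysed here.

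Summits were assigned to RefSeq GRCm38.p6 gene spans extended by 1 kb, with distances taken from the strand-aware start in the RefSeq promoter table. The fit used limma 3.58.1 (R 4.3.3) on all 16 libraries, with group means and a mean-variance trend.

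The genes, lists and comparisons were chosen with earlier results of these data known. Besides the 5 genes and Traf4 and Traf7, the named genes are the 12 largest called rises and falls among pathway genes, pathway genes called between KO and WT, and the 3 genes most alike to each tested TRAF gene. Myd88 was named after its value was seen.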

Additional observations from a re-analysis of the deposited data

How the results depend on the processing

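Traf1 kept its call after R837, and between KO and WT over the treated times, under every alternative run. Of the 5 genes, the number called after R837 was 3 with lists as deposited (3 at 2 h, 2 at 4 h and 2 at 6 h), against 1 in each case, and 2 at 2 h with summit counts. With lists as deposited 53.5% of all genes were called (62.6% at 2 h, 31.8% at 4 h and 37% at 6 h), so 3 of 5 is near the background. At 6 h after R837 it was 0 with 1 rank per gene and 0 without both libraries that stood apart. Between KO and WT it was 0 at 4 h with summit counts and 0 with only the compared groups, and 0 at 6 h with 1 rank per gene, with only the compared groups and without both libraries that stood apart. For the response in KO against WT it was 1, in place of 0, when a summit in at least 1 list was enough.

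Leaving out 1 library in turn, the number called ranged from 1 to 2 for R837 over all times, for R837 at 2 h and for KO against WT in treated cells. It ranged from 0 to 1 for KO against WT at 2 h and at 6 h, for the response, and for the later times less 2 h. The Traf6 difference of KO and WT ranged from −0.07 to 0.32. It was 0.0 with summit counts and −0.07 without both libraries that stood apart, and none of these was called. With summit counts, the changes of Irf5, Sharpin and Sqstm1 after R837 were 0.09, 0.11 and 0.11, and the differences of KO and WT were −0.46 for Tnfaip3 in treated cells, −1.08 for Tnfaip3 at 6 h and −0.87 for Birc3. With regions extended by 3 kb that of Sqstm1 at 4 h was 2.39. The cause was not tested. The 5 regions held 28 stretches of summits, and 57 when summits were joined within 250 bp.

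Over all genes, KO against WT in treated cells called 63 genes here, 240 with lists as deposited, 41 with 5000 summits, 255 with summit counts, 8 with only the compared groups and 35 with the replicate block. R837 called 2977 here, 5842 with lists as deposited and 1045 with 1 rank per gene. KO against WT at 6 h called 112 here, 840 with lists as deposited and 0 with only the compared groups (289 at an unadjusted p under 0.05).

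Same-numbered KO and WT libraries did not deviate together (r between −0.11 and 0.04). The labels do not say whether the numbers pair libraries. A low r cannot exclude it, as a shared effect smaller than the spread between libraries would also leave r low. With the replicate block 1 TRAF gene was called for KO against WT in treated cells, as without it, and the Tnfaip3 call there was lost (adjusted p = 0.0669).

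Depth is unknown, which limits every statement on a summit that is not listed.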

Other observations

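Of the family genes outside the 5, Traf7 had a summit in all 16 shortened lists, and its rank score averaged 2.49 ± 0.94 in 12 treated and 2.63 ± 0.69 in 4 untreated libraries (SD). Its change was −0.14 (SE 0.40) and was not called. Its region also holds Caskin1 and Rab26os. Traf4 had a summit in no shortened list. In the lists as deposited 3 of 12 treated and 3 of 4 untreated libraries had one, and its region includes the neighbouring gene Nek8.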
